A study of Mus musculus with 13 samples.

Results

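The genes described here are 28 that make cholesterol, sense it or move it. They were taken by name from a fixed list, out of 24411 genes in the bulk expression table, and all 28 were also present in both single-cell tables, which held 14601 and 14164 genes. By role, 7 encode enzymes of the mevalonate steps, 11 enzymes of the sterol steps, 5 proteins of sterol sensing and 5 proteins of transport and export. The first pair of roles, 18 genes, is called the synthesis enzymes below. Their RNA was measured in skeletal muscle of wild-type C57BL/6 mice aged 2 months, in 11 bulk libraries and 2 droplet single-cell libraries.

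The bulk libraries fell into 4 groups. Fresh SMMC (smooth-muscle and mesenchymal-like cells, n = 3) were sorted as CD31-, CD45-, Sca1-, Vcam1- and ITGA7+. Proliferating SMMC (n = 3) were cells of this sort after 3 days of culture, and differentiating SMMC (n = 3) had been cultured and allowed to differentiate. The mix of cells need not have stayed the same in culture. MuSC (quiescent muscle stem cells, n = 2) were sorted with the same antibodies but as Vcam1+, and were taken fresh. No transgene, gene deletion or drug was named for any group. The single-cell libraries held mononuclear cells of uninjured hindlimb muscle, with no sort named.

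Cells build cholesterol from acetyl-CoA. The mevalonate steps end in farnesyl diphosphate, a branch point that also feeds protein prenylation, ubiquinone and dolichol, and the sterol steps join farnesyl units into squalene and close and trim the rings. When membrane sterol is low, Scap carries the transcription factors encoded by Srebf1 and Srebf2 from the endoplasmic reticulum to the Golgi, where they are cut and released to the nucleus. When sterol is high, the proteins encoded by Insig1 and Insig2 hold Scap back. Npc1 and Npc2 release cholesterol from lysosomes, Stard4 carries it between membranes, and Abca1 and Abcg1 export it. In dividing and fusing muscle cells cholesterol is a component of new membrane.

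The promoters of these genes are known for binding sites of the sterol response factors and of the partners NF-Y and Sp1, so their sequences are shown before the values. A RefSeq promoter (build GRCm38.p6, 250 bases before to 50 after each start site) was matched for 22 of the 28 genes, which have 30 start sites between them. The genes without an entry were Fdps, Fdft1, Sqle, Stard4, Npc1 and Abcg1. Printed here, 5′ to 3′, are the 250 bases before the start site of 5 genes whose levels are described below: Hmgcs1 (chr13:119690101-119690350, plus strand), Nsdhl (chrX:72918271-72918520, plus strand), Insig1 (chr5:28071162-28071411, plus strand), the first of 3 start sites of Insig2 (chr1:121332590-121332839, minus strand) and Abca1 (chr4:53159896-53160145, minus strand). Capitals mark the CCAAT box on either strand (CCAAT or ATTGG) and, in Hmgcs1, the core of a sterol regulatory element (TCACNCCAC).
Hmgcs1: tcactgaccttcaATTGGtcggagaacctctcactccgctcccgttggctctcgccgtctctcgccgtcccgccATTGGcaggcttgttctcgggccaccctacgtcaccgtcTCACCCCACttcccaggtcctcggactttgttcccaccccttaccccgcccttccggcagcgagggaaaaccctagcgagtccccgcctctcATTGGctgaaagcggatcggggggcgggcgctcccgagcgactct
Nsdhl: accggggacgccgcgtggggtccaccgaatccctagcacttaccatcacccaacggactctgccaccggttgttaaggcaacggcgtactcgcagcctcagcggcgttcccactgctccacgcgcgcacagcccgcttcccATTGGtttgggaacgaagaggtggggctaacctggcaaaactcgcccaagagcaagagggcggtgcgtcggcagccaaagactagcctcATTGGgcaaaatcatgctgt
Insig1: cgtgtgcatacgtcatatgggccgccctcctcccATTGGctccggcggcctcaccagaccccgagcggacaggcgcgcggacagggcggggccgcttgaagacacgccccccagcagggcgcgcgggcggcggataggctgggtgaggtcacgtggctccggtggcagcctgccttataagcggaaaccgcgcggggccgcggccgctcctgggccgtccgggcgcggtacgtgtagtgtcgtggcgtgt
Insig2: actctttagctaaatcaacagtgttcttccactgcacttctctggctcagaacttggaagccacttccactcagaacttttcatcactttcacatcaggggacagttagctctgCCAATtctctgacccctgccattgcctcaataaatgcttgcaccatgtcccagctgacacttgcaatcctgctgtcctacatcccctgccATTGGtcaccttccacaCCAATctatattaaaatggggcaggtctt
Abca1: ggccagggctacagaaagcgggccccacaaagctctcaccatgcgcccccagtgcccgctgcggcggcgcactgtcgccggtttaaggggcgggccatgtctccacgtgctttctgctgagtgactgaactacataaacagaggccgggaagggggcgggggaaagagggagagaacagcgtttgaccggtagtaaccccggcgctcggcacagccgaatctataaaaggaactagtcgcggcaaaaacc
Hmgcs1 and Nsdhl are enzymes with several CCAAT boxes, Insig1 and Insig2 are the genes most different between the freshly sorted groups, and Abca1, an exporter, carries none.

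Over the 300-base windows, searched on both strands, the CCAAT box was found in 20 of the 30 promoters (66.7%), against 37.4% of all 32851 RefSeq promoters. By gene it was found in 19 of 22, the exceptions being Acat2, Scap and Abca1. The GC box (GGGCGG), the site of Sp1, was found in 25 of 30 (83.3%, against 35.7% of all promoters), and the E-box (CACGTG) in 7 of 30 (23.3%, against 7.15%). The element core was found in 1 of 30, that of Hmgcs1, where it starts 137 bases before the start site (position -137), against 1.24% of all promoters. Only exact matches to the core pattern were counted, so variant elements, or elements outside the 300 bases, would be missed. Matches of different motifs were counted separately, also where they shared bases. A match is a description of the letters and shows no binding.

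**Figure D1:**
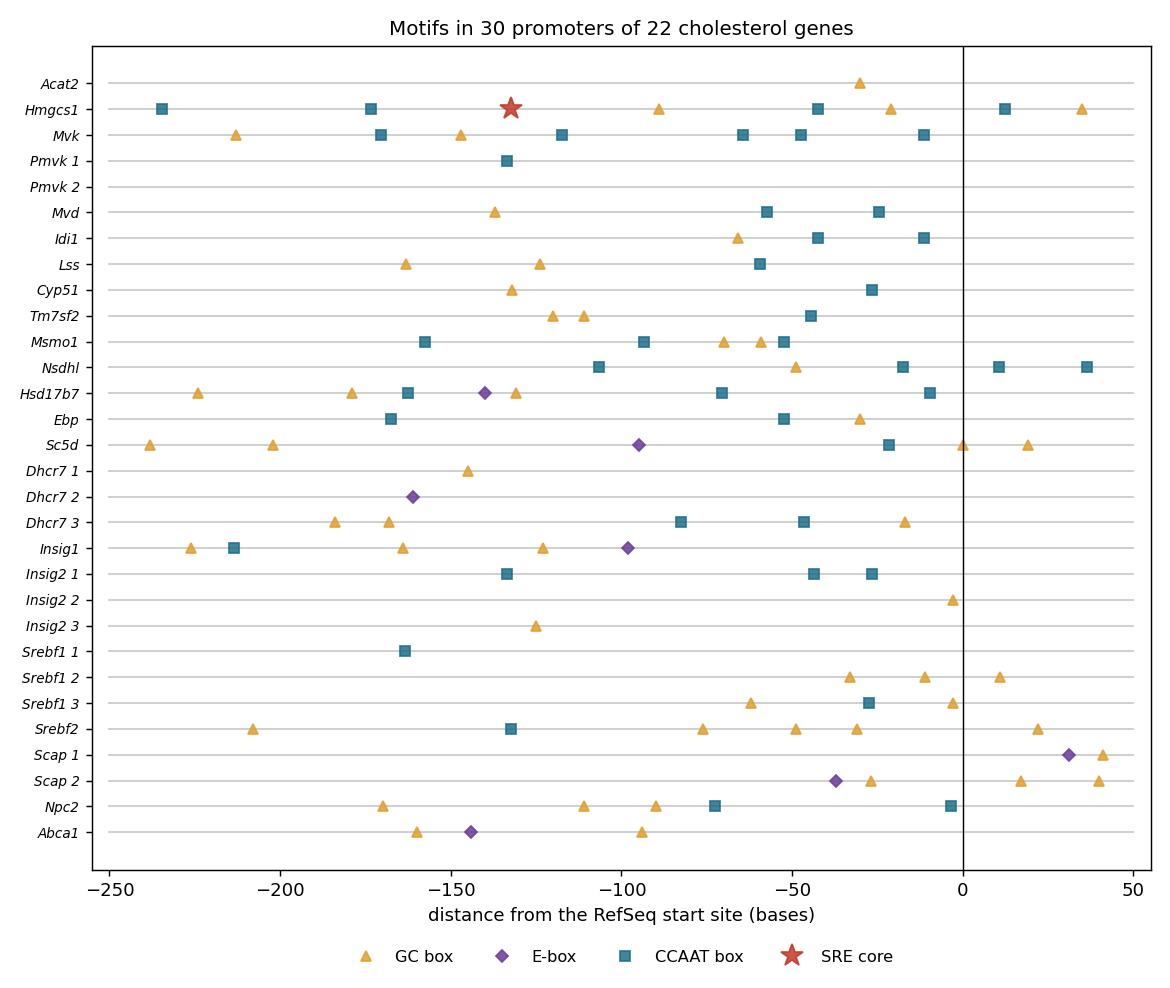
Motif matches in the 30 RefSeq promoters of 22 cholesterol genes, each drawn as a line from 250 bases before to 50 bases after its start site (x axis, bases from the start site; numbers after a gene name count its start sites). Squares are CCAAT boxes, triangles GC boxes, diamonds E-boxes and the star the sterol regulatory element core. The star stands alone, in Hmgcs1, while CCAAT boxes appear in 20 of the 30 lines.

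The bulk values are FPKM, fragments scaled by transcript length and by library total, so levels can be compared between genes per length. Columns summed to between 464441 and 577580 FPKM, and 9527 to 11667 genes a library reached 1 FPKM. FPKM keep no read counts, so the depth is unknown. The labels do not say whether libraries of a group came from separate animals, so p-values reflect the spread among the libraries at hand, part or all of which can be technical. Sorted and cultured groups differed in cell type markers. The summed stem cell markers were 27292 to 39746 FPKM in MuSC and 874 to 1041 in fresh SMMC, with none at 0 in either group. Fresh SMMC carried tenocyte markers at 9191 to 18747 FPKM, fibro-adipogenic progenitor markers at 4059 to 7005, pericyte markers at 1504 to 3859 and vascular smooth muscle markers at 1341 to 1997. They also carried Schwann markers at 761 to 1124, red cell markers at 338 to 896 and endothelial markers at 312 to 466, and no marker of these 7 lists was at 0 in a fresh SMMC library. After culture, tenocyte markers were at 10.2 to 45.3 FPKM, fibro-adipogenic markers at 37.7 to 294 and Schwann markers at 55.5 to 167. Red cell markers were then at 0.41 to 4.81 and endothelial markers at 5.96 to 35.1. Pericyte markers fell to between 10.7 and 49 FPKM. Vascular smooth muscle markers summed to 640 to 893 FPKM in proliferating and 1162 to 1661 in differentiating SMMC. By the test described below, 9 of these 10 smooth muscle markers were lower in proliferating than in fresh SMMC. In differentiating SMMC 8 were lower than in fresh. Cell cycle genes summed to 15.8 to 22.1 FPKM in fresh and 1658 to 1986 in proliferating SMMC, and muscle differentiation genes reached 20364 to 25025 in differentiating SMMC. Immediate early and heat shock genes, known to rise when tissue is dissociated, summed to 8804 to 15349 FPKM in fresh SMMC, 984 to 1523 in MuSC and 394 to 807 after culture. The part these differences have in the results below was not tested, and in bulk samples fewer cells of a type and less RNA per cell cannot be told apart.

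Most synthesis enzymes were higher in cultured than in fresh SMMC, 11 of 18 in the proliferating and 15 of 18 in the differentiating group, and the exporters were lower. All 28 genes passed the filter on low values (at least 1 FPKM in at least 2 libraries), 24 of them at 1 FPKM or more in all 11 libraries. In proliferating against fresh SMMC, 12 genes rose and 4 fell past an adjusted p of 0.05 (limma, Benjamini-Hochberg over 13233 genes, two-sided), where 33.1% of all genes were called higher and 35.4% lower. In differentiating against proliferating SMMC, 14 rose and 0 fell, against 20.9% and 19.6% of all genes. No member passed an unadjusted p of 0.05 in the lower direction there (0 of 28), while with TMM scaling Srebf2 was called lower (log2 difference -0.47, adjusted p 0.0438) and without proliferating replicate 1 Scap was (-0.79, adjusted p 0.00615). In differentiating against fresh SMMC, 17 rose and 3 fell, against 34.7% and 33.3%. In fresh SMMC against MuSC, 8 were higher and 6 lower, against 41.7% and 18%. The share of members called higher was thus below that of all genes in this last comparison and above it in the 3 with cultured cells.

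The median log2 difference of the 28 genes was 0.34 in proliferating against fresh SMMC (all genes -0.06), 0.78 in differentiating against proliferating (all genes 0.00), 1.26 in differentiating against fresh (all genes 0.03) and 0.22 in fresh SMMC against MuSC (all genes 0.45). The groups did not overlap for 16, 15, 22 and 15 of the genes in the same order, against 71%, 51%, 71.4% and 73.3% of all genes. These comparisons share libraries: fresh SMMC enter 3 of them, and the values for each are given side by side and not as independent results. Folds were taken from differences of log2(FPKM + 1), so those of genes at low levels come out too small.

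**Figure D2:**
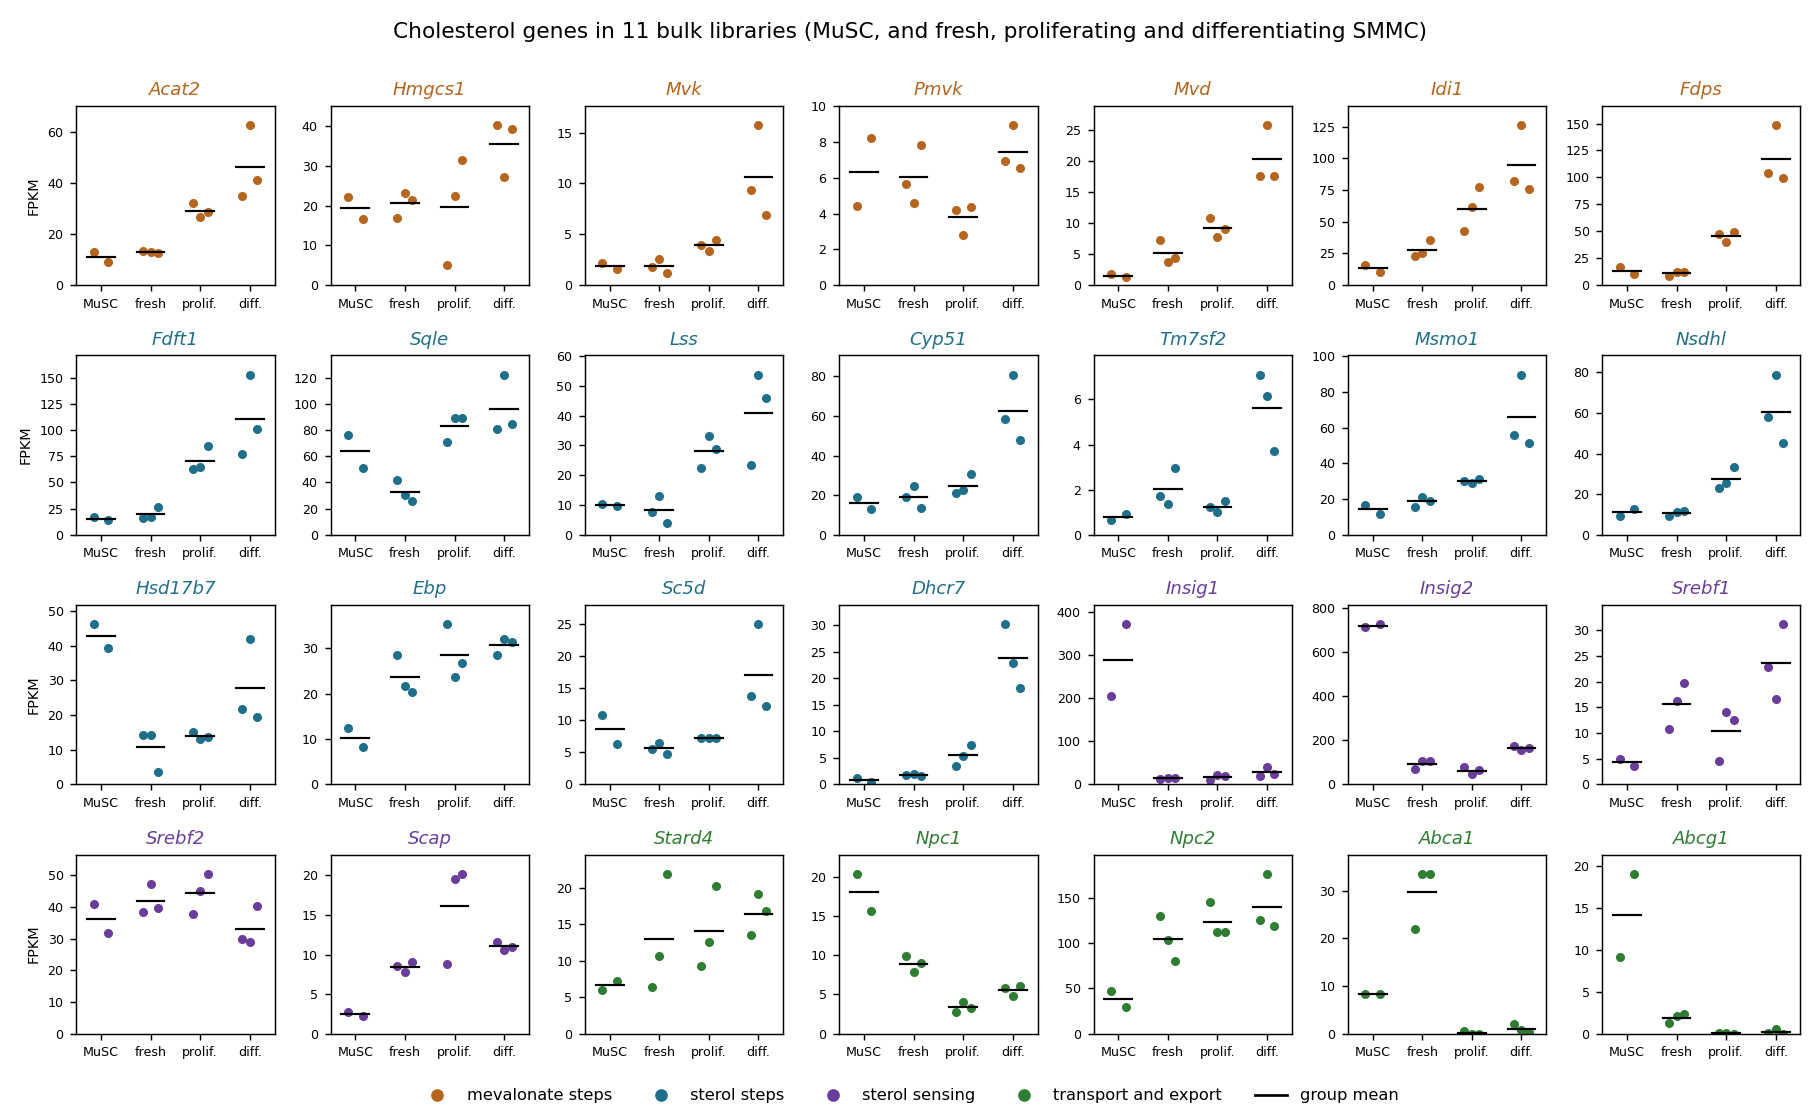
FPKM of each of the 28 genes (1 panel a gene, y axis from 0) in the 11 bulk libraries, by group on the x axis: MuSC, then fresh, proliferating (prolif.) and differentiating (diff.) SMMC. Points are libraries, lines are group means and colours give the role. Insig1 and Insig2 stand highest in MuSC, Fdps and Dhcr7 in differentiating SMMC, and Abca1 in fresh SMMC.

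Among the mevalonate enzymes, 5 of 7 rose in proliferating against fresh SMMC and 5 of 7 in differentiating against proliferating SMMC. Of all genes 33.1% and 20.9% were called higher there. Fdps, which makes farnesyl diphosphate, measured 8.42, 12.1 and 12.1 FPKM in fresh SMMC, 47.4, 39.9 and 49.2 in proliferating SMMC, 104, 148 and 99.9 in differentiating SMMC and 16.5 and 10.4 in MuSC. Every cultured library lay above every fresh one, and every differentiating library above every proliferating one. Fdps rose 3.94-fold in proliferating against fresh SMMC (log2 difference 1.98, SE 0.23, adjusted p 8.71e-06), 2.51-fold in differentiating against proliferating (adjusted p 0.000627) and 9.91-fold in differentiating against fresh (adjusted p 1.56e-07). Idi1, the isomerase that makes the second building block of the chain, measured 23.1, 25.4 and 35.4 FPKM in fresh, 42.4, 61.5 and 77.4 in proliferating and 82.2, 126 and 75.9 in differentiating SMMC, with 16.2 and 10.5 in MuSC. It rose 2.09-fold on culture (adjusted p 0.00433), and the differentiating and proliferating libraries overlapped. Acat2, the thiolase that joins acetyl-CoA units, was at 13.4, 12.8 and 12.7 FPKM in fresh, 32.2, 26.7 and 28.5 in proliferating and 34.7, 62.5 and 41.1 in differentiating SMMC, and at 13 and 9.14 in MuSC. The fresh libraries were alike and none reached a cultured one: the rise on culture was 2.15-fold (adjusted p 0.000755).

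Mvk and Mvd, the kinase and the decarboxylase of mevalonate, were low genes that rose at each step. Mvk was at 1.82, 2.61 and 1.22 FPKM in fresh, 3.96, 3.36 and 4.49 in proliferating and 9.34, 15.7 and 6.85 in differentiating SMMC, and at 2.17 and 1.61 in MuSC. Mvd was at 7.19, 3.80 and 4.34 FPKM in fresh, 10.9, 7.77 and 9.0 in proliferating and 17.5, 25.7 and 17.5 in differentiating SMMC, and at 1.78 and 1.31 in MuSC. No library overlapped between successive groups for either gene. Differentiating against fresh SMMC, Mvk was 3.91-fold and Mvd 3.52-fold higher (adjusted p 6.8e-05 and 4.54e-05), and fresh SMMC had 2.35-fold more Mvd than MuSC (adjusted p 0.00234). Pmvk, the second kinase, ran from 2.81 to 8.93 FPKM over all libraries and rose 1.77-fold in differentiating against proliferating SMMC. Hmgcs1, which makes the precursor that is reduced to mevalonate, was not called in any comparison. It was at 17.0, 23.2 and 21.5 FPKM in fresh, 5.02, 22.4 and 31.5 in proliferating and 40.3, 27.3 and 39.3 in differentiating SMMC, and at 22.1 and 16.7 in MuSC. Its proliferating libraries ran from below to above the fresh ones (adjusted p 0.51). Without proliferating replicate 3 it was called higher on differentiation (adjusted p 0.0155, against 0.0799 with all libraries), and with only the 2 groups in the fit it was called higher in differentiating than in fresh SMMC (adjusted p 0.0129, against 0.178). Idi1 was also called higher on differentiation without proliferating replicate 3 (adjusted p 0.0457).

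Several of these calls rested on single libraries or on the scaling and filter. Idi1 was 2.03-fold higher in fresh SMMC than in MuSC (adjusted p 0.0128), but not without MuSC replicate 2 (adjusted p 0.137). The rise of Mvk on culture, 1.74-fold (adjusted p 0.0262), ended without fresh replicate 1 or 3 or proliferating replicate 1 or 3 (adjusted p 0.0576, 0.102, 0.0524 and 0.0766), with Rn45s left out of the totals (0.0588) and with no filter on low values (0.0544). That of Mvd, 1.70-fold (adjusted p 0.0164), ended without fresh replicate 2 or 3 or proliferating replicate 1 (adjusted p 0.0742, 0.0533 and 0.0542). The 1.52-fold rise of Acat2 on differentiation (adjusted p 0.0467) ended without any 1 of 5 libraries, all but differentiating replicate 1 (adjusted p 0.0501 to 0.199), and also with TMM scaling, no filter, a pseudocount of 0.1, only the 2 groups in the fit or the replicate number as a block (adjusted p 0.0501 to 0.0906). The rise of Pmvk (adjusted p 0.0269) ended without proliferating replicate 2 or differentiating replicate 1 or 2 (adjusted p 0.11, 0.0537 and 0.0901), and with TMM scaling, quantile normalization or no filter (0.0539, 0.0911 and 0.0519).

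Of the 11 sterol-step enzymes, 6 rose in proliferating against fresh SMMC, 6 in differentiating against proliferating and 10 in differentiating against fresh, and none fell. In the same order 33.1%, 20.9% and 34.7% of all genes were called higher and 35.4%, 19.6% and 33.3% lower. Fdft1, squalene synthase, was at 15.6, 16.9 and 26.8 FPKM in fresh, 62.3, 64.3 and 85.0 in proliferating and 76.8, 153 and 101 in differentiating SMMC, and at 16.7 and 13.6 in MuSC. Its step came at culture, 3.5-fold (log2 difference 1.81, SE 0.27, adjusted p 7.17e-05), and the differentiating libraries overlapped the proliferating ones (adjusted p 0.0432 without differentiating replicate 1, not called with it). Sqle, the epoxidase that acts on squalene, showed the same step, from 42.2, 30.5 and 25.5 FPKM to 70.8, 89.3 and 89.1, with 80.8, 122 and 84.5 in differentiating SMMC. In MuSC it was at 76.7 and 51.1 FPKM, above all fresh SMMC libraries. Sqle rose 2.53-fold on culture (adjusted p 0.000316) and was 1.92-fold lower in fresh SMMC than in MuSC (adjusted p 0.00909), a call that ended without MuSC replicate 1 (adjusted p 0.107). Lss, the cyclase that forms the ring system, was at 7.6, 13 and 4.07 FPKM in fresh, 22.4, 33.2 and 28.7 in proliferating and 23.3, 53.7 and 45.9 in differentiating SMMC, with 10.2 and 9.53 in MuSC. Its rise on culture was 3.39-fold (adjusted p 0.000899).

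Nsdhl and Dhcr7 rose at both steps. Nsdhl, which removes carbon from the sterol nucleus, was at 9.32, 11 and 11.5 FPKM in fresh, 23.1, 25.6 and 33.2 in proliferating and 58.2, 78.9 and 45.0 in differentiating SMMC, and at 9.20 and 12.9 in MuSC. The successive folds were 2.42 (adjusted p 0.000356) and 2.15 (adjusted p 0.00245). Dhcr7, the last reductase of one route to cholesterol, was at 1.74, 2.01 and 1.47 FPKM in fresh, 3.49, 5.36 and 7.47 in proliferating and 30.2, 22.9 and 18.1 in differentiating SMMC, and at 1.25 and 0.511 in MuSC. All 3 states were apart: the folds were 2.28 (adjusted p 0.00224) and 3.89 (adjusted p 0.000155), and 8.87 from fresh to differentiating (log2 difference 3.15, SE 0.28, adjusted p 1.11e-06).

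Cyp51, Tm7sf2, Msmo1, Sc5d and Hsd17b7 were highest among SMMC in the differentiating group. Cyp51, which removes a methyl group from lanosterol, was at 19.3, 24.9 and 13.7 FPKM in fresh, 20.9, 22.7 and 30.5 in proliferating and 58.6, 80.9 and 47.9 in differentiating SMMC, and at 19.3 and 12.9 in MuSC. Fresh and proliferating libraries overlapped, and the rise on differentiation was 2.44-fold (adjusted p 0.00215). Msmo1, a sterol oxidase, was at 15.7, 21 and 19.2 FPKM in fresh, 30.1, 29.2 and 31.1 in proliferating and 56.0, 89.8 and 51.6 in differentiating SMMC, and at 16.7 and 11.9 in MuSC. It rose 2.08-fold on differentiation (adjusted p 0.00261) after a 1.59-fold rise on culture (adjusted p 0.0185), which ended without fresh replicate 1 (adjusted p 0.0692) or with Rn45s left out of the totals (adjusted p 0.0678). Tm7sf2, a sterol reductase, was at 1.71, 1.37 and 2.97 FPKM in fresh, 1.23, 1.01 and 1.51 in proliferating and 7.10, 6.13 and 3.70 in differentiating SMMC, and at 0.651 and 0.901 in MuSC. Only the differentiating group stood apart from the other SMMC groups (2.89-fold over proliferating, adjusted p 0.000526). Sc5d, a desaturase, held 5.50, 6.47 and 4.77 FPKM in fresh, 7.20, 7.18 and 7.21 in proliferating and 13.7, 24.9 and 12.1 in differentiating SMMC, with 10.7 and 6.32 in MuSC, and rose 2.09-fold on differentiation (adjusted p 0.00776).

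Hsd17b7, a sterol ketone reductase, was the enzyme with the highest MuSC level relative to fresh SMMC. It was at 46.2 and 39.3 FPKM in MuSC, at 14.1, 14.2 and 3.57 in fresh, 15.1, 13.1 and 13.6 in proliferating and 21.8, 41.9 and 19.4 in differentiating SMMC. Fresh SMMC were 4.30-fold lower than MuSC (log2 difference -2.10, SE 0.46, adjusted p 0.00179) and differentiating SMMC 2.67-fold above fresh (adjusted p 0.00888). Ebp, a sterol isomerase, was higher in fresh SMMC (28.7, 21.7 and 20.4 FPKM) than in MuSC (12.5 and 8.12 FPKM) by 2.19-fold (adjusted p 0.00146). It was at 23.7 to 35.4 FPKM in the cultured groups and was called in none of the comparisons within SMMC. Tm7sf2 was called 1.66-fold higher in fresh SMMC than in MuSC (adjusted p 0.0439), but not without fresh replicate 1 or 3 or either MuSC library (adjusted p 0.0555 to 0.196), nor with no filter, only the 2 groups in the fit or the replicate block (adjusted p 0.0832, 0.0519 and 0.0808).

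The fresh comparison with MuSC depended on how columns were scaled. The median of all genes was 0.45 as deposited and 0.07 with TMM scaling, so that a difference of 0.45 on the log2 scale is the level of the middle gene there. With TMM the higher share among all called genes went from 69.8% to 52.5%, and with quantile normalization to 48.1%. Under TMM, 5 of the 28 genes were higher and 8 lower, under quantile normalization 5 and 9. Idi1 was no longer called under either (adjusted p 0.156 and 0.0655), nor was Tm7sf2 (log2 difference 0.43 and -0.01), while Ebp lost its call under TMM (adjusted p 0.0569) and Mvd under quantile normalization (adjusted p 0.187). Fdps and Sc5d, not called as deposited, were lower in fresh SMMC than in MuSC under both (log2 difference -0.83 and -0.82 for Fdps, -1.04 and -1.22 for Sc5d), and Mvk under quantile normalization (-0.83, adjusted p 0.0346). The ribosomal precursor Rn45s took 0.0244% and 0.0253% of the MuSC columns and 4.11% to 10.2% of the SMMC columns. With it left out of the totals the counts in this comparison were again 8 and 6. That step changes only the scale of a column. The Rn45s gap ran wholly with the group, so a difference in how the libraries were made or processed cannot be told apart from cell type here. The same holds for each difference between MuSC and SMMC, those of Insig1 and Insig2 below included. In proliferating against fresh SMMC the same step gave 9 higher and 5 lower members, with a median of all genes of -0.19, and quantile normalization 12 and 4 with a median of 0.14.

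**Figure D3:**
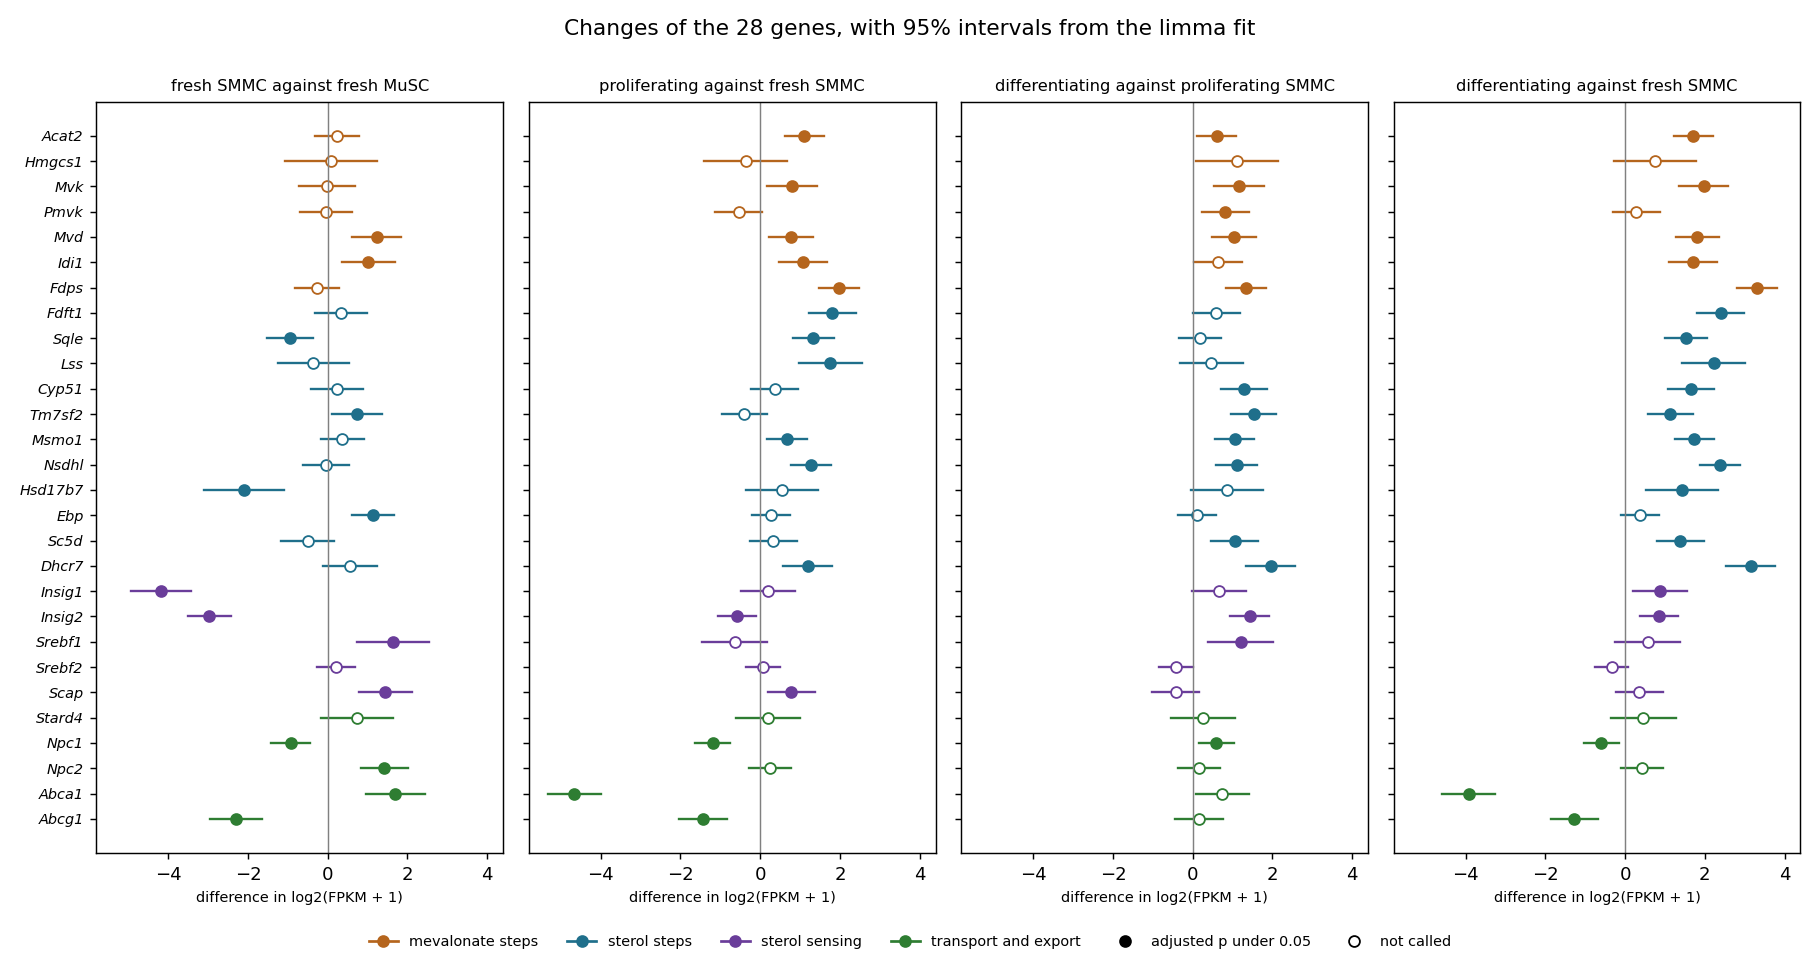
Difference in log2(FPKM + 1) (x axis) of the 28 genes (rows, coloured by role) in the 4 bulk comparisons, with 95% intervals from the limma fit. Filled circles passed an adjusted p of 0.05 and open circles did not. In the comparison of differentiating with fresh SMMC 15 of the 18 synthesis enzymes lie right of 0 as filled circles, while Abca1, Abcg1 and Npc1 lie left of it.

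The sensing genes gave the largest differences between the freshly sorted cells among the 28. Insig1 measured 204 and 371 FPKM in MuSC, 13.1, 14.7 and 14.8 in fresh, 10.9, 21.2 and 19.0 in proliferating and 19.6, 40.2 and 24.2 in differentiating SMMC. Insig2 measured 715 and 728 FPKM in MuSC, 68.8, 105 and 105 in fresh, 77.6, 45.5 and 63.2 in proliferating and 176, 154 and 166 in differentiating SMMC. Both MuSC libraries lay above all 9 SMMC libraries for each gene, and Insig2 was the most abundant of the 28 genes in MuSC. Insig1 was 18.2-fold lower in fresh SMMC than in MuSC (log2 difference -4.19, SE 0.35, adjusted p 8.28e-07) and Insig2 7.83-fold lower (log2 difference -2.97, SE 0.25, adjusted p 8.98e-07). On differentiation Insig2 rose 2.69-fold over proliferating SMMC (adjusted p 0.00029) and 1.80-fold over fresh (adjusted p 0.00471).

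Scap and Srebf1 ran the other way between the fresh groups. Scap was at 2.71 and 2.22 FPKM in MuSC, 8.52, 7.82 and 9.03 in fresh, 8.74, 19.5 and 20.2 in proliferating and 11.5, 10.6 and 11 in differentiating SMMC. Srebf1, whose product drives fatty acid as well as sterol genes, was at 4.91 and 3.57 FPKM in MuSC, 10.8, 16.3 and 19.7 in fresh, 4.45, 14.1 and 12.6 in proliferating and 22.9, 16.7 and 31.2 in differentiating SMMC. All fresh SMMC libraries exceeded both MuSC libraries, 2.73-fold for Scap (adjusted p 0.00125) and 3.11-fold for Srebf1 (adjusted p 0.00477, or 0.0543 without MuSC replicate 2). Srebf1 rose 2.3-fold on differentiation (adjusted p 0.0223), and this ended without proliferating replicate 1 or differentiating replicate 1 or 3 (adjusted p 0.0715, 0.0579 and 0.0801), with no filter (0.0686) or with only the 2 groups in the fit (0.0892). Srebf2, whose product is the main driver of the synthesis genes, passed the threshold in no comparison as deposited and stayed between 28.9 and 50.6 FPKM in all 11 libraries. Its log2 differences had intervals of -0.27 to 0.68 for fresh SMMC against MuSC, -0.34 to 0.50 on culture, -0.84 to 0.01 on differentiation and -0.76 to 0.08 from fresh to differentiating. Its call in the last comparison depended on scaling: it was lower in differentiating SMMC with TMM (log2 difference -0.50, adjusted p 0.0204), quantile normalization (-0.60, adjusted p 0.00981) and Rn45s left out of the totals (-0.53, adjusted p 0.0298).

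Among the smaller calls of these genes, 3 rested on single libraries and settings. Scap was 1.71-fold higher in proliferating than in fresh SMMC (adjusted p 0.0224) although the groups overlapped, and the call ended without fresh replicate 2 or proliferating replicate 2 or 3 (adjusted p 0.0673, 0.0965 and 0.0983), with only the 2 groups in the fit (0.0573) or with Rn45s left out of the totals (0.0869). Insig2 was 1.5-fold lower there (adjusted p 0.0338), also with overlap, and not without fresh replicate 2 or 3 or proliferating replicate 2 or 3 (adjusted p 0.0595 to 0.165), with no filter (0.0598) or with only the 2 groups in the fit (0.0689). Insig1 was 1.83-fold higher in differentiating than in fresh SMMC (adjusted p 0.0251), and not without any 1 fresh library or differentiating replicate 2 (adjusted p 0.0505 to 0.114), nor with TMM scaling, Rn45s left out of the totals or no filter (adjusted p 0.0706, 0.0788 and 0.0621).

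The exporters fell when SMMC were cultured. Abca1, which loads cholesterol onto apolipoproteins, was at 21.9, 33.6 and 33.4 FPKM in fresh SMMC and at 0.612 and 0.0460 in proliferating replicates 1 and 2, with replicate 3 listed at 0. It was at 2.06, 0.781 and 0.438 FPKM in differentiating SMMC and at 8.28 and 8.33 in MuSC. No cultured library came near a fresh one: the fitted difference was 25.3-fold lower in proliferating (log2 difference -4.66, SE 0.31, adjusted p 8.29e-08) and 15.2-fold lower in differentiating SMMC (adjusted p 3.97e-07). Between the cultured groups Abca1 was not called, but it was higher in differentiating SMMC without proliferating replicate 1 (adjusted p 0.0336), without differentiating replicate 3 (adjusted p 0.0313) or with a pseudocount of 0.1 FPKM (adjusted p 0.0226). Fresh SMMC had 3.24-fold more Abca1 than MuSC (adjusted p 0.000977), a call that ended with that pseudocount (adjusted p 0.0601). The sum of the macrophage markers, which the CD45- gate should remove, moved with this gene between groups. The markers summed to 110 to 522 FPKM in fresh SMMC, 24.7 to 33.9 in MuSC, 0.592 to 1.67 in proliferating and 0.598 to 3.29 in differentiating SMMC. Only 4 of the 11 passed the filter and were tested. In fresh SMMC against MuSC 2 of these were higher and 1 lower, and all 4 were lower in both cultured groups than in fresh SMMC. Of the 11 markers, C1qb, C1qc, Adgre1 and Fcgr1 were at 0 in every cultured library, and their part in the fall of Abca1 was not tested. Within fresh SMMC, replicate 1 had the highest macrophage marker sum (522, against 169 and 110) and the lowest Abca1, while replicates 2 and 3 were alike in Abca1. Endothelial markers were lowest in replicate 1 (312, against 404 and 466 FPKM). So were pericyte markers (1504, against 2889 and 3859), vascular smooth muscle markers (1341, against 1523 and 1997) and immediate early and heat shock genes (8804, against 13439 and 15349). Tenocyte, fibro-adipogenic, Schwann and red cell markers were highest in it. With 3 libraries these orders cannot be told apart. On average over the 11 named single-cell classes, Abca1 was highest in macrophage-like and next in endothelial-like cells. The part of any of these cell types was not tested.

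Abcg1, the exporter to mature lipoprotein particles, was at 9.10 and 19.0 FPKM in MuSC and 1.32, 2.12 and 2.33 in fresh SMMC. In proliferating SMMC it was at 0.104, 0.0871 and 0.0233 FPKM, and in differentiating SMMC at 0.0689 and 0.595 with replicate 3 listed at 0. The order MuSC, fresh and cultured held without overlap. Fresh SMMC were 4.93-fold below MuSC (log2 difference -2.3, SE 0.31, adjusted p 3.85e-05), and proliferating SMMC 2.70-fold below fresh (adjusted p 0.000493) with the fold made smaller by the added 1 FPKM. Npc1, the lysosomal membrane carrier, was at 20.4 and 15.6 FPKM in MuSC, 9.92, 7.89 and 8.97 in fresh, 2.81, 4.06 and 3.23 in proliferating and 5.82, 4.84 and 6.10 in differentiating SMMC. It was 1.91-fold lower in fresh SMMC than in MuSC (adjusted p 0.00352) and fell 2.28-fold on culture (adjusted p 0.000212).

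Npc2, the soluble partner of Npc1, went the other way between the fresh groups, with 130, 103 and 79.9 FPKM in fresh SMMC and 47.0 and 29.97 in MuSC, 2.68-fold higher in fresh SMMC (adjusted p 0.000632). It was at 112 to 146 FPKM in proliferating and 118 to 176 in differentiating SMMC, and was the most abundant of the 28 genes in fresh and in proliferating SMMC. Stard4 was not called in any comparison and ran from 6.06 to 22 FPKM, though it was called higher in fresh SMMC than in MuSC without fresh replicate 1 (adjusted p 0.0295) and in differentiating than in fresh SMMC without fresh replicate 3 (adjusted p 0.0302). Npc1 rose 1.51-fold on differentiation (adjusted p 0.0337) and stood 1.51-fold below fresh (adjusted p 0.0209). The first of these calls ended without proliferating replicate 1 or 3 or differentiating replicate 1 or 3 (adjusted p 0.082 to 0.0915) and with quantile normalization, only the 2 groups in the fit or the replicate block (0.118, 0.0583 and 0.0522), and the second without fresh replicate 1 or differentiating replicate 2 (adjusted p 0.063 and 0.072).

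Genes around the pathway did not follow the enzymes as a block. Those named are the 3 of a list with the smallest adjusted p in a comparison, not the largest folds. Over all genes 33.1% rose and 35.4% fell on culture, 20.9% and 19.6% on differentiation, and 34.7% and 33.3% from fresh to differentiating SMMC, and several list counts below lie near these shares. Of 11 tested genes on the branches that leave the mevalonate pathway, 7 rose and 0 fell on culture, with a median log2 difference of 0.66. Named by p were Pdss1, which makes the tail of ubiquinone (53.9 ± 3.13 against 5.37 ± 0.377 FPKM, SD, n = 3 each, 8.63-fold), Pdss2 (2.70-fold) and the prenylation subunit Pggt1b (1.83-fold). On differentiation 1 rose and 2 fell: Pdss1 fell 3.44-fold, Pggt1b fell 1.46-fold and Dhdds, a dolichol enzyme, rose 1.91-fold. Of 13 tested fatty acid genes that SREBP factors are known to drive, 2 rose and 4 fell on culture, the latter near the share of all genes, and 5 rose and 4 fell on differentiation. Scd1, a fatty acid desaturase, was at 13.2 FPKM on average in fresh, 2.59 in proliferating and 12.7 in differentiating SMMC (4.04-fold down, then 3.90-fold up), and Lpin1, a lipid phosphatase, at 9.13, 0.357 and 7.97 (7.02-fold down, 6.27-fold up). Acss2, which makes acetyl-CoA from acetate, rose 8.25-fold on differentiation, and Me1 rose 3.53-fold on culture. From fresh to differentiating SMMC, 4 branch genes rose and 1 fell, with Dhdds 3.37-fold, Pdss1 2.51-fold and the prenylation subunit Fnta 1.91-fold higher. Among fatty acid genes 3 rose and 2 fell in that comparison, Acss2 by 3.99-fold and Me1 by 2.61-fold upwards and the elongase Elovl5 5.42-fold downwards.

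Sterol uptake, storage and clearance genes mostly fell on culture, 13 of 22 tested against 1 that rose, with a median log2 difference of -1.23, where 35.4% of all genes fell. Markers of several cell types moved with them: endothelial markers summed to 312 to 466 FPKM in fresh and 30.2 to 35.1 in proliferating SMMC, and macrophage markers to 110 to 522 and 0.592 to 1.67. Tenocyte markers summed to 9191 to 18747 and 10.2 to 25.5, fibro-adipogenic markers to 4059 to 7005 and 37.7 to 47.5, and pericyte markers to 1504 to 3859 and 10.7 to 17.4. In single cells Cd36 was highest in endothelial-like and Apoe in macrophage-like cells among the 11 named classes. Mural-like cells also carried Cd36, and Schwann-like and muscle stem cell-like cells Apoe, with values under other observations. The part of any of these cells in the fall was not tested. Apoe, an apolipoprotein, went from 134 ± 41.8 to 0.312 ± 0.0823 FPKM, the fatty acid and lipoprotein receptor Cd36 from 150 ± 57.9 to 0.332 ± 0.277 and Cyp27a1, a sterol hydroxylase, from 15.4 ± 2.54 to 0.189 ± 0.0664 (SD, n = 3 each). On differentiation 11 of the 22 rose and 1 fell, with Cd36 back to 14.8 FPKM and Hsd3b7, an oxysterol enzyme, from 0.657 to 9.76, and Osbpl2 rising 2.27-fold. Apoe, Cyp7b1 and Cyp27a1 were 99.4-fold, 6.32-fold and 7.82-fold below fresh SMMC in the differentiating group, where 5 of the 22 were higher and 9 lower. Of 17 tested sensing and processing genes, 3 rose and 7 fell on culture. Nr1h3 encodes a liver X receptor, known to switch on Abca1 and Abcg1. It was at 17.7 ± 8.86 FPKM in fresh and 0.0304 ± 0.0527 in proliferating SMMC (16.5-fold lower), and 14.1-fold lower in differentiating than in fresh. Nr1h2, the other liver X receptor gene of this list, was not among the 3 named by p. Nr1h2 was at 34.9, 38.9 and 53.6 FPKM in fresh and 27.9, 23.2 and 27.3 in proliferating SMMC. In differentiating SMMC it was at 39.96, 39.6 and 36.9. The part of either receptor in the fall of the exporters was not tested. Mylip, another liver X receptor target, was 6.20-fold lower on culture and 4.72-fold lower in differentiating than in fresh SMMC, while the sterol-regulated Tmem97 rose 8.78-fold on culture and fell 2.68-fold on differentiation. On differentiation 3 of these 17 rose and 4 fell, with the NF-Y subunits Nfyb and Nfyc 1.96-fold and 1.67-fold lower. From fresh to differentiating 2 rose and 9 fell, Sp1 among them by 4.61-fold.

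Between the freshly sorted groups, 16 of 22 uptake and clearance genes were higher in SMMC and 3 lower (median log2 difference 1.51), where 41.7% of all genes were higher and 18% lower. In the other 3 lists the count of higher genes lay nearer the share of all genes. Cd36 stood at 150 FPKM against 1.73 in MuSC, Cyp7b1 at 5.60 against 0.0499, and Gramd1b, a sterol carrier of the endoplasmic reticulum, at 0.279 against 10.6. Of the sensing and processing genes 6 were higher and 3 lower, with the sterol-binding Pgrmc1 8.46-fold, the ubiquitin ligase Rnf139 4.28-fold and Nr1h3 9.11-fold higher in SMMC. Of the fatty acid genes 6 were higher and 3 lower, with Elovl5 7.4-fold, Fads1 6.44-fold and Fads2 4.09-fold higher. Of the branch genes 4 were higher and 3 lower, with Fnta 6.99-fold and Coq2 6.55-fold higher and Pggt1b 2.14-fold lower.

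The single-cell libraries showed which cells of the tissue carried these RNAs without a sort. They held 6144 and 6297 cells with 19353328 and 15507938 UMIs and medians of 2516 and 2027 UMIs a cell, and 53 cell barcodes occurred in both. Cells were clustered without the 28 genes and without the other pathway genes, 52 and 55 predicted doublets (0.846% and 0.873%) were left out, and clusters were named from fixed markers, each name meaning cells like that type. Levels are CPM, the UMIs of a gene divided by all UMIs of that class and library and scaled to 1000000, with 95% Poisson intervals that cover counting error only. The endothelial-like and B cell-like classes were filled mostly by different clusters in the libraries, so that their levels compare unlike mixtures. Schwann-like, natural killer-like and neutrophil-like cells numbered 30 and 75, 29 and 55, and 38 and 21, and are given as values without a test. A skeletal muscle fibre-like cluster of 26 cells, 13 in each library, is not among the 11 named classes described, and no levels are given for it.

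Among the 11 named classes, synthesis enzymes were highest in Schwann-like and muscle stem cell-like cells. The 18 enzymes summed to 1863 (interval 1573 to 2191) and 1210 (1049 to 1389) CPM in Schwann-like cells of library 1 and 2, the myelin-forming type known for a high sterol demand. Muscle stem cell-like cells had 910 (860 to 963) and 682 (641 to 725), and fibro-adipogenic progenitor-like cells 626 (603 to 650) and 570 (541 to 600). Tenocyte-like cells had 426 and 390, mural-like cells (pericyte-like and vascular smooth muscle-like together) 320 (276 to 369) and 353 (309 to 402), and macrophage-like cells 317 and 308. The B cell-like, T cell-like, endothelial-like and natural killer-like classes ran from 187 to 284, and neutrophil-like cells had 145 and 266. An unnamed cluster of 146 cells, cluster 10, had 775 and 964, above stem cell-like cells in library 2. In both libraries the first 3 named classes kept that order with intervals that did not meet, and mural-like and macrophage-like intervals overlapped. Hmgcs1 gave the Schwann-like class 689 (518 to 899) of its CPM in library 1 but 204 (141 to 285) in library 2. Without Hmgcs1 the Schwann-like sums were 1174 and 1006, against 816 and 648 in muscle stem cell-like cells.

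**Figure D4:**
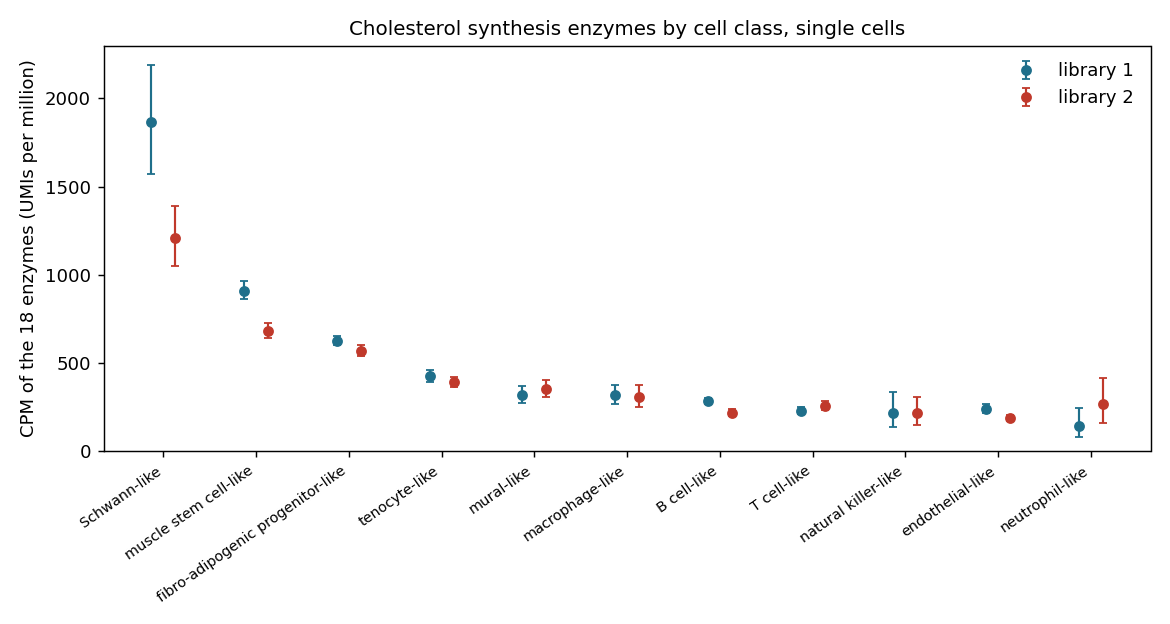
Summed CPM of the 18 synthesis enzymes (y axis, from 0) in 11 named cell classes (x axis) of 2 single-cell libraries, with 95% Poisson intervals. Schwann-like cells lie at 1863 and 1210, muscle stem cell-like cells at 910 and 682, and mural-like cells at 320 and 353.

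Over the 8 classes with at least 50 cells in both libraries, 18 of the 28 genes had a highest class at least 3-fold above the lowest in both libraries (above the level of 3 UMIs where the lowest had fewer). For 22 genes the highest class was the same in both, and for 7 its interval lay clear of the next class in both. The same counts were not made over all genes. They therefore do not show whether the members differ more between classes than other genes do. These ranks and those below are over the 8 classes and leave out the unnamed clusters and the 3 small classes. Of these 7, Idi1, Fdps, Hsd17b7 and Insig2 were highest in muscle stem cell-like cells. Insig2 was at 287 (259 to 317) and 245 (221 to 271) CPM there, with fibro-adipogenic progenitor-like cells next at 83.7 and 74.4, and mural-like cells at 61.3 and 45.7. Idi1 was at 160 (140 to 183) and 98.4 (83.2 to 115), Fdps at 114 (97.1 to 134) and 119 (102 to 138), and Hsd17b7 at 47.5 (36.6 to 60.7) and 68.7 (56.1 to 83.2). Insig2 and Hsd17b7 were thus high both in sorted MuSC and in unsorted stem cell-like cells. Sqle, Cyp51 and Msmo1 were also highest in stem cell-like cells among the 8 classes, at 60.9 and 59.4, 82.5 and 52.8, and 171 and 89.1, but without intervals clear of the next class in both libraries. Hmgcs1, Fdft1 and Sc5d were highest in fibro-adipogenic progenitor-like cells in both libraries, Hmgcs1 at 107 and 70.0, Fdft1 at 23.0 and 24.4 and Sc5d at 35.7 and 39.6.

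Insig1, far higher in MuSC than in fresh SMMC in bulk, had no common highest class in single cells. It was at 98.8 (82.7 to 117) and 64.7 (52.5 to 78.8) CPM in stem cell-like cells, 93.8 (84.9 to 103) and 119 (106 to 133) in fibro-adipogenic progenitor-like cells and 25.5 (14.3 to 42.1) and 67.0 (48.7 to 90.0) in mural-like cells. The highest class was stem cell-like in library 1 and fibro-adipogenic progenitor-like in library 2. Of the 8 classes, Srebf1 was highest in fibro-adipogenic progenitor-like cells, at 31.8 and 27.6, and Srebf2 in stem cell-like cells, at 55 and 57.4, both with overlap of the next class. The Schwann-like class, outside the 8, averaged 49.5 for Srebf1 over the libraries. Scap reached at most 17.3 in the 8 classes and had no common highest class.

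Transport genes marked other cells. Npc2 was at 862 (779 to 953) and 883 (782 to 994) CPM in macrophage-like cells and 566 and 541 in T cell-like cells. Npc1 was at 112 (82.9 to 147) and 109 (75.6 to 153) in macrophage-like cells, where the next class had 27.2 in library 1. Abca1 was at 246 (202 to 296) and 257 (204 to 320) there, against 15.3 and 19.8 in mural-like and 10.4 and 7.26 in stem cell-like cells. These 3 genes are the remaining ones with 1 of the 8 classes clear of the other 7 in both libraries. Unnamed clusters reached similar levels for 2 of them, Abca1 with 184 and 265 in cluster 22 and Npc2 with 833 and 924 in cluster 15. Of the 8 classes, B cell-like cells had the most Abcg1, 42.3 and 39.9, and endothelial-like cells the most Stard4, 54.1 and 20.3. Unnamed cluster 15 had more Abcg1, 65.5 and 53.6, and unnamed cluster 6 had Stard4 at 42.6 and 43.8. Within cluster 1 of the endothelial-like cells, with 562 and 160 cells, Stard4 was at 71.8 and 37.4, and within cluster 3, with 66 and 710 cells, at 36.7 and 20.7. Abcg1 was at 32.5 to 50.2 in each of the 3 B cell-like clusters of either library. Pmvk was highest in mural-like cells, at 45.9 (30.3 to 66.9) and 64.0 (46.1 to 86.5). Mvd was at least 3-fold apart over classes in both libraries but with different highest classes, T cell-like at 10.6 and endothelial-like at 20.7. Mvk, Nsdhl, Ebp, Dhcr7, Acat2, Srebf1, Srebf2 and Scap did not differ by 3-fold in both, and Lss and Tm7sf2 had at most 11 and 7 UMIs in any class and library.

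**Figure D5:**
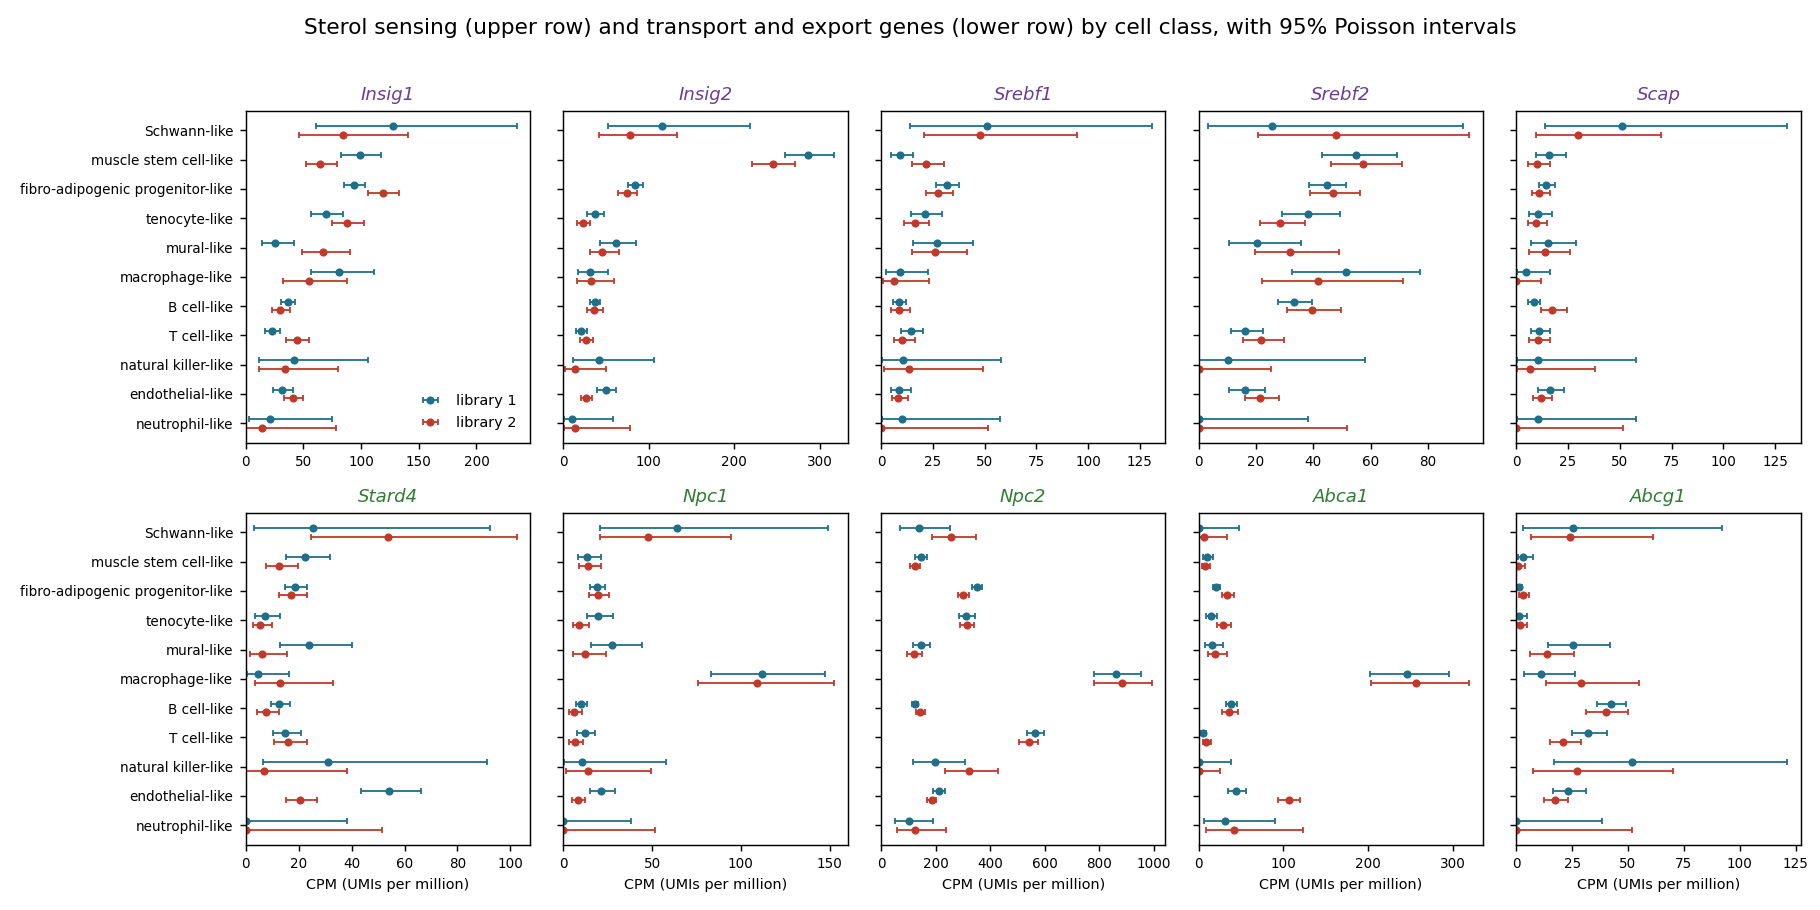
CPM (x axis) of the 5 sensing genes (upper row) and the 5 transport and export genes (lower row) in 11 cell classes (y axis) of 2 libraries, with 95% Poisson intervals. Insig2 peaks in muscle stem cell-like cells at 287 and 245, and Npc1, Npc2 and Abca1 peak in macrophage-like cells.

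Mural-like cells, the single-cell class with the smooth muscle markers, were tested against muscle stem cell-like cells to set unsorted cells beside the sorted bulk groups. The ITGA7 and Vcam1 gates were not applied to the single cells, so the classes are not the sorted populations. Bulk fresh SMMC also carried tenocyte markers at 9191 to 18747 FPKM and fibro-adipogenic markers at 4059 to 7005. The mural-like class leaves those cell types out. With edgeR's quasi-likelihood test on UMI sums per library and class (n = 2 libraries, library as a term, 11772 genes), 2 members were higher and 10 lower in mural-like cells. Over all genes 15.8% were higher and 12.3% lower. Lss and Tm7sf2 had too few UMIs to be tested. The median log2 difference of the 26 tested members was -0.76, against 0.04 over all genes. Lower in mural-like cells were 7 synthesis enzymes besides Ebp, namely Idi1 (4.25-fold), Fdps (3.20-fold), Fdft1 (3.69-fold), Sqle (4.48-fold), Cyp51 (5.36-fold), Msmo1 (5.77-fold, adjusted p 3.26e-05) and Hsd17b7 (10.6-fold, adjusted p 0.000117). Ebp was 2.38-fold, Insig2 6.01-fold (log2 difference -2.59, adjusted p 1.85e-06) and Srebf2 2.53-fold lower.

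The genes higher in mural-like cells were Abcg1 and Pmvk. Abcg1 rested on 15 and 9 UMIs in mural-like against 4 and 1 in stem cell-like cells (25.5 and 13.7 against 2.97 and 0.66 CPM, 8.78-fold, adjusted p 0.00162). Pmvk was 2.73-fold higher (adjusted p 0.00628), and with pericyte-like cells alone its log2 difference was 0.04 (adjusted p 0.977). Insig1 was 2.13-fold lower without passing the threshold (adjusted p 0.0689). Set beside the bulk values, Hsd17b7, Insig2 and Sqle were lower than in stem cells in both kinds of data. As deposited, Idi1 and Ebp were higher in sorted SMMC than in MuSC, while they were lower in mural-like than in stem cell-like cells. In tenocyte-like cells Ebp averaged 69.2 CPM and Idi1 28.4, against 61.0 and 129 in stem cell-like cells. In fibro-adipogenic progenitor-like cells Ebp averaged 56.3 and Idi1 58.6, both below stem cell-like cells. The part of either class in the bulk values was not tested. With TMM neither bulk call held (adjusted p 0.156 and 0.0569), and Fdps was lower in sorted SMMC as it was in mural-like cells. Abcg1 was lower in sorted SMMC and higher in mural-like cells. No test of the difference between bulk and single-cell results was made, since they differ in chemistry, sort and unit.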

How the data were processed

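Bulk RNA came from 11 libraries of sorted or cultured muscle cells and droplet RNA from 2 single-cell libraries, grouped by the labels. Per the labels, bulk RNA was isolated with an RNA XS kit, copied with Smart-seq2 and made into libraries with NuGen Ovation, and single cells with 10x 3′ chemistry. The bulk values are FPKM as the authors deposited them, and the single-cell values are UMI counts as deposited, per the file headers and values. The submitters' processing notes name build mm10 and, in no stated order, Cell Ranger 2.1.0 and 2.2.0, STAR 2.5.1b, HISAT2 2.1.0, StringTie, SAMtools 1.3.1, R 3.3.1, 3.4.3 and 3.5.1, and Seurat 2.2 and 2.3.4. Of annotation, strand setting and cell filters nothing is said in the labels. Left out were 4 FPKM columns of the bulk file, whose names matched no sample.

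The test covered 13233 genes that reached 1 FPKM in 2 or more libraries, and was made with limma 3.58.1 in R 4.3.3 (lmFit, eBayes with trend) on log2(FPKM + 1), all 11 libraries in 1 fit with 7 residual degrees of freedom, two-sided, Benjamini-Hochberg adjusted, threshold 0.05. Limits of 200 detected genes and 20% mitochondrial UMIs per cell removed 0 cells. Cells were clustered with scanpy 1.11.5 (Python 3.11.15; 2000 variable genes, 30 components, 15 neighbours, Leiden resolution 1.0, scrublet doublets left out) into 26 clusters, of which 6 with 1791 of 12334 cells stayed unnamed. UMIs were summed per library and class, and 8 classes with at least 50 cells in both libraries were fitted with edgeR 4.0.16 (quasi-likelihood, TMM, library term). Both fits were tested on simulated data. Alternatives were other scalings (TMM, quantile normalization, totals without Rn45s), a pseudocount of 0.1, other filters, fewer groups, a replicate term, DESeq2 1.42.0, other clusterings and each library left out.

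The 28 genes and all lists were chosen with earlier results of these data known. Values in every library are given for members past the threshold with no overlap between groups and at least 2-fold, and class values for members 3-fold apart over classes in both single-cell libraries. Of the other lists the 3 genes with the smallest adjusted p in each comparison are named. Any further value was chosen after it was seen.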

Additional observations from a re-analysis of the deposited data

How the results depend on the processing

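Of the results for single members that passed the threshold, 891 alternatives kept the direction and the call, 76 kept the direction without the call, and 1 reversed: Tm7sf2 in fresh SMMC against MuSC, at -0.0088 with quantile normalization. The counts of genes called, 7906 for fresh SMMC against MuSC, 9061 for proliferating against fresh, 5360 for differentiating against proliferating and 8992 for differentiating against fresh, fell to 5233, 6030 and 5911 for the first, second and last when at least 10 FPKM were required, which leaves fewer genes tested. Members higher in fresh SMMC than in MuSC numbered 8, but 5 with TMM, 5 with quantile normalization and 5 to 8 with 1 library left out. Members lower in differentiating than in proliferating SMMC numbered 0, but 1 with TMM and 0 to 1 with 1 library left out. Members higher in mural-like cells numbered 2, and 1 with pericyte-like cells only. The 18-enzyme level moved in macrophage-like cells to 346 CPM at resolution 0.5, and in natural killer-like cells to 326 at resolution 0.5, 204 at resolution 2.0 and 242 with doublets kept. The causes were not tested. Same-numbered bulk libraries showed no clear shared deviation: correlations ran from -0.128 to 0.142, over 0.1 in 2 of 15 pairs. For different numbers they ran from -0.263 to 0.288, over 0.1 in 5 of 30. Deviations from means of 2 or 3 libraries are tied to one another, so this cannot exclude pairing. With the replicate block, member calls higher and lower were 7 and 6, 12 and 4, 13 and 0, and 17 and 3, and genes called 7642, 9039, 5293 and 8968, in the order of the comparisons above. Without the library term, called no replicate block, the single-cell test called 2452 genes and 2 members higher and 10 lower. Of 48 member changes that were not called, 22 of 652 alternatives gave a call with the same sign and 43 turned the sign without a call. The bulk depth is unknown, and in single cells Lss and Tm7sf2 had too few UMIs to be tested.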

Other observations

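Other lipid genes had their own cells in the single-cell libraries. Apoe, an apolipoprotein, was at 14241 and 13753 CPM in macrophage-like cells of library 1 and 2, at 5029 and 4157 in Schwann-like cells and at 1747 and 1521 in muscle stem cell-like cells. Scd2, a fatty acid desaturase, was at 408 and 299 in Schwann-like cells, against 74.2 and 72.8 in fibro-adipogenic progenitor-like cells and at most 17.8 in stem cell-like cells. Lrp1, a lipoprotein receptor, was at 368 and 351 in fibro-adipogenic progenitor-like cells and 158 and 148 in mural-like cells. Nr1h3, a liver X receptor, was at 114 and 44.2 in mural-like cells and at 3.71 and 2.64 in stem cell-like cells. Cd36 was at 2199 and 1224 in endothelial-like cells, a class filled mostly by different clusters in the libraries, and at 878 and 623 in mural-like cells. These levels are CPM of a class and library and were not tested.

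Of the 6 clusters that stayed unnamed, cluster 10 had the highest sums of the 18 synthesis enzymes, 775 and 964 CPM in library 1 and 2 from 146 cells. In it Sqle was at 83.9 and 187, Msmo1 at 109 and 170 and Insig1 at 79.0 and 162. The other unnamed clusters had sums between 96.5 and 420.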
